A study of Mus musculus with 16 samples.

Results

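The clustered protocadherin genes were taken as all protein-coding genes whose symbol begins with Pcdha, Pcdhb, Pcdhga, Pcdhgb or Pcdhgc, together with Pcdhac1 and Pcdhac2, and 57 of 21887 protein-coding genes met this rule. All 57 lie on chromosome 18 between positions 36930285 and 37841873 of mm10, a stretch of 912 kb. They comprise 12 alternate alpha genes (Pcdha1 to Pcdha12), 2 alpha genes of the C type (Pcdhac1 and Pcdhac2), 22 beta genes (Pcdhb1 to Pcdhb22), 18 alternate gamma genes (the Pcdhga and Pcdhgb genes) and 3 gamma genes of the C type (Pcdhgc3, Pcdhgc4 and Pcdhgc5). The members were chosen by symbol, but the family was singled out with its earlier H3K27me3 and H3K4me3 peak calls in these same lists in view, so its counts describe the cluster and carry no test.

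Clustered protocadherins are cadherin-like adhesion proteins of the cell surface. In the alpha and gamma clusters each variable exon has its own promoter and is spliced to constant exons at the far end of the cluster, whereas each beta gene is a single-exon gene. In neurons, where the family is best known, each cell uses a small choice of the alternate promoters, helped by the DNA-binding protein CTCF and the cohesin ring, while the C-type promoters are used more evenly. The proteins bind the same isoforms on neighbouring cells and so help a neurite to tell itself from others. H3K4me3 is trimethylation of histone H3 at lysine 4 and marks active or poised promoters. H3K27me3 is trimethylation at lysine 27, placed by Polycomb repressive complex 2 and typical of silent developmental genes.

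The chromatin came from skeletal muscle stem cells of C57BL/6 mice in a quiescent state (QSC) or an activated state (ASC), with no further genotype or treatment in the labels. Each mark in each state had 2 immunoprecipitated replicates, each with an input, which gave 8 immunoprecipitated and 8 input samples. How the cells were isolated and activated, and whether replicates came from separate animals, is not given in the sources used here. The deposited peak lists were pooled over replicates, with 1 narrow and 1 broad list per mark and state.

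With 1 list per state, no difference between QSC and ASC below has a replicate error or a test, and the read depth behind a list is unknown. The fold of a peak is the authors' own enrichment over background and was used to describe peaks within a list. All 10 satellite cell marker genes, among them Pax7, Myf5 and Myod1, carried an H3K4me3 narrow peak in both states. Of 6 neuronal markers, 0 did so in QSC and 2 (Tubb3 and Elavl4) in ASC. Broad H3K27me3 was called at all 6 neuronal markers in both states. Among the satellite cell markers it was called at 0 in QSC and at 2 in ASC, Calcr and Chrdl2. Of 5 markers each, H3K4me3 was called in QSC and ASC at 2 and 2 Schwann and glial genes, 2 and 3 endothelial genes, 0 and 0 immune genes and 0 and 1 fibro-adipogenic genes. In the same order, broad H3K27me3 was called at 4 and 4, 4 and 3, 3 and 4, and 1 and 2 of these genes. The part of other cells in the results below was not tested.

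H3K4me3 was found at few of these promoters, and at the same ones in both states. A narrow peak touched the window of 1 kb either side of the start at Pcdhac2, Pcdhgc3 and Pcdhgc4, all of the C type, and at 0 of the 52 alternate and beta genes. This gives 3 of 57 members in QSC, where 52.1% of all protein-coding genes were called, and 3 of 57 in ASC, where 54.8% were. Among all genes 0.722% were called in QSC alone and 3.44% in ASC alone, against 0 members of either kind. The other 54 members had 0 bp of H3K4me3 narrow peak in their windows in either state, including the C-type genes Pcdhac1 and Pcdhgc5.

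Pcdhgc3, the first of the gamma C types, had the strongest of the 3 peaks. It spanned 37805519 to 37810568 in QSC, 5050 bp with a fold of 19.35 and a −log10 q of 76.47. In ASC it spanned 37805419 to 37811015, 5597 bp with a fold of 32.87 and a −log10 q of 212.47. The median fold of all H3K4me3 narrow peaks on chromosome 18 was 10.65 for QSC and 16.04 for ASC, so the Pcdhgc3 peak lay above the middle of each list.

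At Pcdhgc4, the neighbouring C type, the QSC peak was 1895 bp long (37814530 to 37816424) with a fold of 4.32. The ASC peak was 2639 bp long (37814014 to 37816652) with a fold of 8.13. Both folds were under the median of their own list. At Pcdhac2, the last variable exon of the alpha cluster, the peak covered 1331 bp in QSC (37143270 to 37144600, fold 9.19) and 1718 bp in ASC (37143169 to 37144886, fold 10.48), and it too lay under both medians. All 3 peaks were longer in ASC, and in the whole ASC list peaks were also longer, with a median of 2071 bp against 1501 bp in QSC on chromosome 18.

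Only 2 other H3K4me3 narrow peaks lay inside the cluster. One marked Taf7, a general transcription factor gene that sits between the beta and gamma genes, at 37643186 to 37644658 in QSC (fold 12.10) and at 37642932 to 37645166 in ASC (fold 22.04). The other was listed in ASC alone, 449 bp long with a fold of 5.06, and ended 5638 bp before the start of Pcdhga1. The map of deposited peaks shows these few H3K4me3 narrow peaks beside the H3K27me3 peaks of both states.

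**Figure D1:**
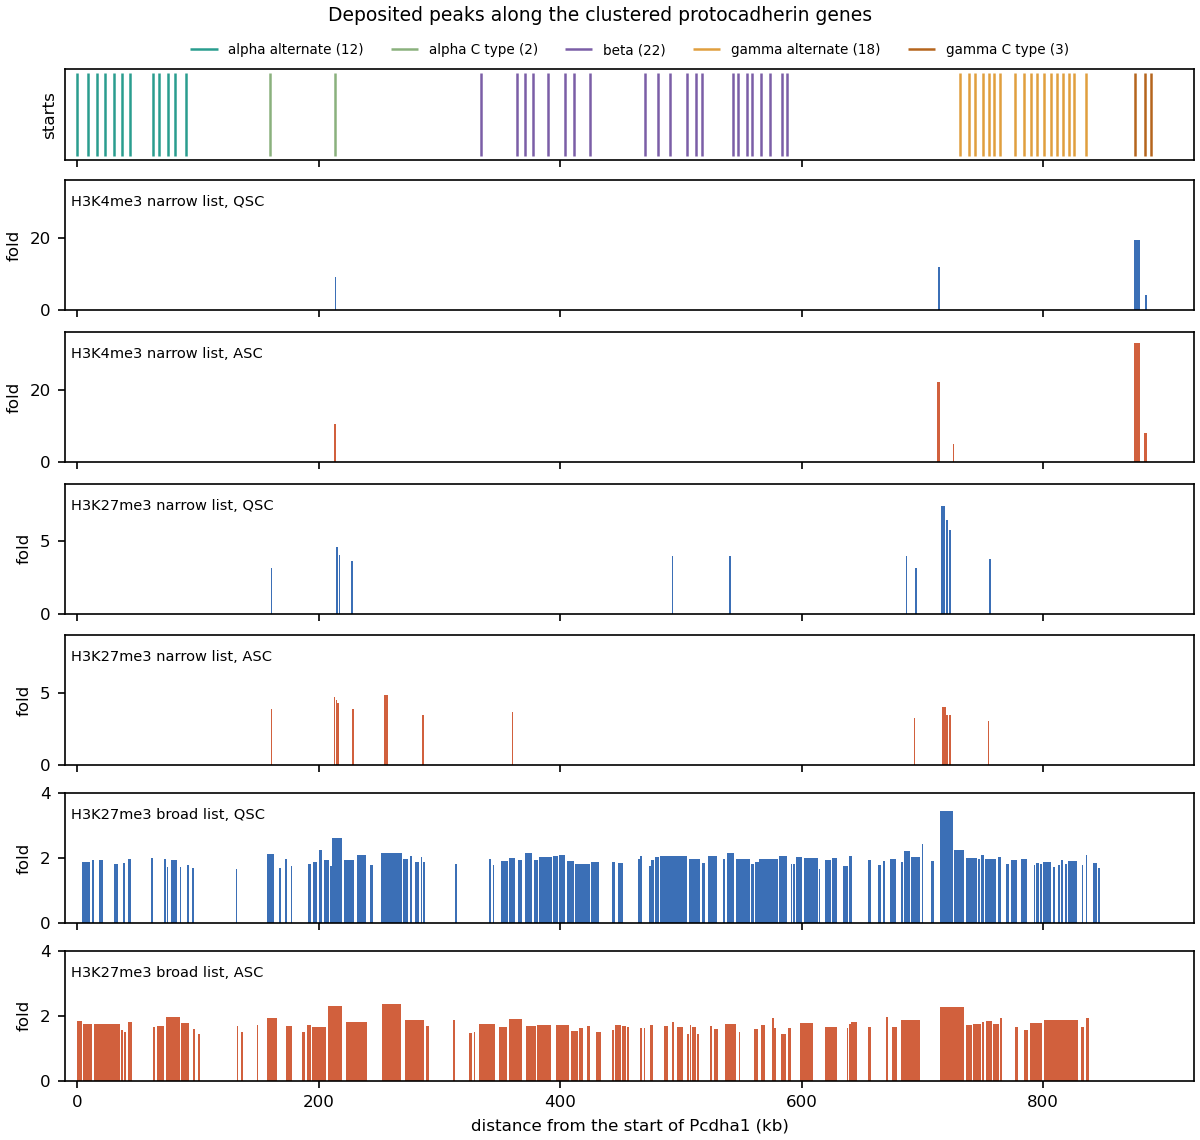
Deposited peaks along the 912 kb cluster, with distance from the start of Pcdha1 on the horizontal axis (kb) and the fold of each peak as bar height; bar width is peak length, the top row marks the 57 starts by subcluster, and each lower row is 1 list (QSC blue, ASC orange). H3K4me3 narrow peaks stand at Pcdhac2, Taf7, Pcdhgc3 and Pcdhgc4 in both states, and no H3K27me3 peak of either state reaches the gamma C-type genes at the right end.

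H3K27me3 broad peaks lay over most of the alternate and beta promoters in both states, at low fold. With at least 500 bp of the window covered, 40 of 57 members were called in QSC, where 25.0% of all protein-coding genes were, and 46 of 57 in ASC, where 30.4% were. A total of 32 members were called in both states, 8 in QSC alone (2.61% of all genes), 14 in ASC alone (7.98% of all genes) and 3 in neither. The member counts come from 32 distinct broad peaks in QSC and 37 in ASC, since a long peak can lie over several starts. The windows themselves do not overlap, because neighbouring starts are at least 4154 bp apart. Since H3K27me3 over these genes was known when the group was drawn up, nothing is read from the distance between these counts and the shares of all genes.

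The peaks were weak one by one. At the called members the fold ran from 1.82 to 2.62 with a median of 1.96 in QSC, and from 1.45 to 2.3 with a median of 1.74 in ASC. The −log10 q ran from 0.32 to 1.58 in QSC and from 0.02 to 1.58 in ASC. Of the broad peaks inside the cluster, 2 of 107 in QSC and 3 of 84 in ASC had a q of at most 0.05. Over the autosomes that share was 3.87% in QSC and 8.55% in ASC, with median folds of 1.90 and 1.72, so low fold and q are a feature of both lists as a whole. The lists also differ in their share of weak peaks. A p above 0.05 was listed for 2.96% of all QSC broad peaks and 21.4% of all ASC broad peaks. In ASC 16 of the 84 cluster peaks had a p above 0.05, against 0 of 107 in QSC, and with such peaks left out both states had 40 members called.

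In the alpha cluster, H3K27me3 covered more of nearly every alternate promoter in ASC. The count went from 4 of 12 alternate alpha genes in QSC to all 12 in ASC, and the median covered length from 415 bp to the full window of 2001 bp. Pcdha2 and Pcdha11 were fully covered in both states. Pcdha3, Pcdha4 and Pcdha9 went from 0 bp in QSC to 2001 bp in ASC, and Pcdha1, the first gene of the cluster, from 0 bp to 1239 bp. At Pcdha5, Pcdha10 and Pcdha12 the covered length was 449, 462 and 381 bp in QSC, just under the 500 bp needed for a call, and 2001 bp at each in ASC.

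Pcdha6 had 378 bp in QSC and 1016 bp in ASC. Pcdha7 and Pcdha8 were called in both states, with 1424 and 751 bp in QSC and 2001 and 909 bp in ASC. Thus 8 alpha genes were called in ASC alone and 0 in QSC alone, and no alpha gene had more covered bases in QSC. The starts of Pcdha3, Pcdha4 and Pcdha5 lay under a single ASC peak of 21726 bp (36943636 to 36965361) with a fold of 1.74. With peaks of p above 0.05 left out of both lists, 13 of 14 alpha genes were called in ASC and 6 in QSC. The difference in calls depended on the window: against 14 alpha genes in ASC, QSC had 11 with 2500 bp either side, 10 with at least 1 bp covered and 14 over the whole gene record.

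Of the 2 alpha C types, Pcdhac2 had the stronger H3K27me3. Pcdhac1 and Pcdhac2 had 2001 bp covered in both states. Their broad peaks had folds of 2.11 and 2.62 in QSC and of 1.93 and 2.3 in ASC, and the Pcdhac2 peak had the highest fold over any called member of the cluster in each state. That peak was 7846 bp long in QSC and 11818 bp long in ASC, each with a −log10 q of 1.58. Because the H3K4me3 peak described above lies at the same start, Pcdhac2 was the 1 member with both marks in QSC and again in ASC, where 4.99% and 9.78% of all genes had both.

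The beta genes split by position. Of 22, 18 were called in QSC and 14 in ASC, with 10 called in both, and the median covered length was 1325.5 bp for QSC against 843 bp for ASC. Near the alpha side the covered length was mostly larger in ASC. Among Pcdhb1 to Pcdhb9, a division made after the values were seen, 7 of 9 had more covered bases in ASC and 1 had more in QSC. Among Pcdhb10 to Pcdhb22, 1 of 13 had more in ASC and 11 had more in QSC. The covered share of the stretch from Pcdhb1 to Pcdhb9 was 55.9% in QSC and 63.6% in ASC, and that from Pcdhb10 to Pcdhb22 was 79.9% and 41.7%.

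Of the first beta genes, Pcdhb1 had 0 bp in QSC and 2001 bp in ASC, Pcdhb2 had 130 and 2001 bp, and Pcdhb9 had 0 and 786 bp. Pcdhb3 went the other way, with 655 bp in QSC and 0 bp in ASC. Farther along, Pcdhb11, Pcdhb17 and Pcdhb20 were covered over all 2001 bp in QSC and over 0 bp in ASC. Pcdhb18 had 1879 and 0 bp, Pcdhb10 had 1128 and 0 bp, and Pcdhb14 had 585 and 0 bp. The last beta gene, Pcdhb22, had 1102 bp in QSC and 473 bp in ASC, close to the 500 bp limit. Pcdhb12 was the exception in this stretch, with 470 bp in QSC and 617 bp in ASC. Pcdhb5 and Pcdhb15 were fully covered in both states.

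These beta calls rest on 14 distinct peaks in each state. The longest QSC broad peak of the whole cluster, 22377 bp at 37412714 to 37435090 with a fold of 2.08, lay over the start of Pcdhb11, and a QSC peak of 15418 bp lay over those of Pcdhb19 and Pcdhb20. With peaks of p above 0.05 left out, the beta count in ASC was 10 and that in QSC stayed at 18. The ends at which beta starts were read follow the orientation of the alpha and gamma genes, because the annotation used gave no strand on chromosome 18. Read at the other end of each beta record, the counts were 20 in QSC and 13 in ASC. The difference depended on the window: with 2500 bp either side of the start the counts were 20 and 19, and over the whole record 19 and 17.

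**Figure D2:**
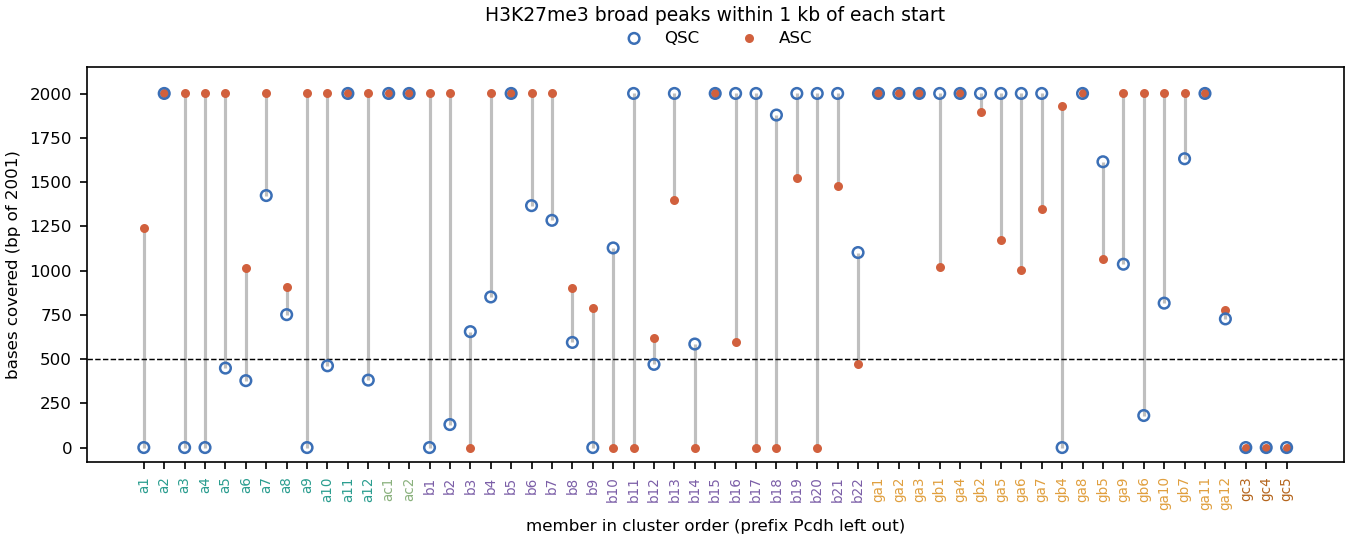
Bases of the 2001 bp window around each start that lie under H3K27me3 broad peaks, for the 57 members in cluster order (QSC open circles, ASC filled circles, joined by a line); the dashed line is the 500 bp needed for a call. ASC points are at or above QSC points for all 14 alpha genes, QSC points are higher at 11 of the 13 genes from Pcdhb10 to Pcdhb22, and Pcdhgc3, Pcdhgc4 and Pcdhgc5 are at 0 in both states.

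The gamma cluster divided into alternate genes under H3K27me3 and C-type genes without it. Of the 18 alternate gamma genes, 16 were called in QSC and all 18 in ASC. The exceptions in QSC were Pcdhgb4, with 0 bp against 1931 bp in ASC, and Pcdhgb6, with 181 bp against 2001 bp. Pcdhga1, Pcdhga2, Pcdhga3, Pcdhga4, Pcdhga8 and Pcdhga11 were fully covered in both states. The last alternate gene, Pcdhga12, was the least covered of those called in both, with 727 bp in QSC and 776 bp in ASC.

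Within the 18 alternate genes, 6 had more covered bases in ASC, 6 had more in QSC and 6 had the same. The runs of neighbours given next were picked after the values were seen. From Pcdhgb1 to Pcdhga7 the windows were fully covered in QSC, while in ASC Pcdhgb1 had 1020 bp, Pcdhga5 1174 bp, Pcdhga6 1002 bp and Pcdhga7 1349 bp. Within this run Pcdhga4 had 2001 bp and Pcdhgb2 1895 bp in ASC. From Pcdhga9 to Pcdhgb7 the windows were fully covered in ASC, while in QSC Pcdhga9 had 1036 bp, Pcdhga10 816 bp and Pcdhgb7 1632 bp. The longest ASC broad peak of the cluster, 28286 bp at 37730904 to 37759189 with a fold of 1.86, lay over 6 starts there, those of Pcdhgb5, Pcdhga9, Pcdhgb6, Pcdhga10, Pcdhgb7 and Pcdhga11. At its edge Pcdhgb5 went the other way, with 1615 bp in QSC and 1068 bp in ASC.

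Pcdhgc3, Pcdhgc4 and Pcdhgc5 had 0 bp of H3K27me3 in their windows in either state and in either list. They lie in the longest stretch of the cluster without an H3K27me3 broad peak, which ran from beyond the Pcdhga12 start to the shared end of the gamma genes. It measured 65.1 kb in QSC (37776788 to 37841873) and 73.1 kb in ASC (37768764 to 37841873). Pcdhgc5 therefore had neither an H3K27me3 peak nor an H3K4me3 narrow peak at its start.

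The broad H3K4me3 lists, which hold peaks of lower fold, touched more members. They called 22 of 57 in QSC, where 66.6% of all genes were called, and 14 of 57 in ASC, where 60.8% were. A total of 9 members were called in both, 13 in QSC alone (8.37% of all genes) and 5 in ASC alone (2.63% of all genes). Beta genes made up 10 of the QSC calls and 2 of the ASC calls, Pcdhb1 and Pcdhb7. The −log10 q at these beta calls was at most 0.31 in QSC and 0.11 in ASC. The 2 lists differ as a whole. On the autosomes 183583 QSC peaks covered 10.5% and 28768 ASC peaks covered 3.63%. A q of at most 0.05 was listed for 6.36% of these QSC peaks and 46.2% of the ASC peaks. The folds were low, with a median of 1.74 in QSC and 1.94 in ASC at the called members.

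Among the members the highest broad folds were again at C types, though Pcdhac1 had only 1.66 in QSC and 1.69 in ASC. Taf7, inside the cluster but not a member, had 4.15 and 7.2. A single ASC peak of 16457 bp (37804392 to 37820848, fold 9.85) lay over the starts of Pcdhgc3, Pcdhgc4 and Pcdhgc5, so that Pcdhgc5 was called in ASC alone. In QSC a peak of 5800 bp (37805202 to 37811001, fold 7.22) lay over Pcdhgc3 and a separate one with a fold of 2.9 over Pcdhgc4. At Pcdhac2 the fold was 3.86 in QSC and 4.34 in ASC.

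Along the whole cluster, covered length was similar in the 2 states while its place differed in part. H3K27me3 broad peaks covered 46.6% of the 912 kb in QSC with 107 peaks of median length 2443 bp, and 49.5% in ASC with 84 peaks of median length 3476 bp. The bases covered in both states were 294111, which is 69.3% of the QSC bases and 65.2% of the ASC bases. By peak, 83.2% of the QSC peaks and 81.0% of the ASC peaks touched one of the other state. These shares were not computed over all peaks of the lists, so they cannot be called particular to the cluster.

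Subcluster by subcluster, the share in QSC and ASC was 19.5% and 43.9% over the alternate alpha genes, 52.2% and 64.3% over the alpha C types and 29.7% and 46.2% between alpha and beta. Over the beta genes it was 66.8% and 53.5%, between beta and gamma 55.9% and 47.6%, and over the alternate gamma genes 48.0% and 53.9%. Over the gamma C types it was 0.0% in both. The larger share was thus in ASC over alpha and in QSC over beta. The alternate alpha stretch ran from the Pcdha1 start to the Pcdhac1 start, 160 kb. Likewise the alternate gamma stretch ran from the Pcdhga1 start to the Pcdhgc3 start. Both therefore include sequence past their last start. Between Pcdha12 and Pcdhac1 the longest piece without a listed peak was 34.3 kb in QSC and 31.0 kb in ASC. Shares of whole stretches thus do not rank the subclusters by cover at their starts. In bins of 10 kb, 42 of 92 bins in QSC and 46 in ASC had at least 50% of their bases covered, 30 of them in both states.

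The stretches beside the cluster had shares between those of the chromosome and of the beta genes. The 250 kb before Pcdha1 were covered over 34.3% in QSC and 47.0% in ASC, and the 250 kb after the gamma end over 39.9% and 41.7%. Chromosome 18 was covered over 17% and 20%, and the autosomes over 18.8% and 21.4%, each chromosome taken from its first to its last listed peak. Of 454 other genes on chromosome 18, read at either end of the record, 32.6% were called in QSC and 35.0% in ASC. Inside the cluster the bases in broad peaks of p at most 0.05 made up 46.6% in QSC and 45.6% in ASC.

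**Figure D3:**
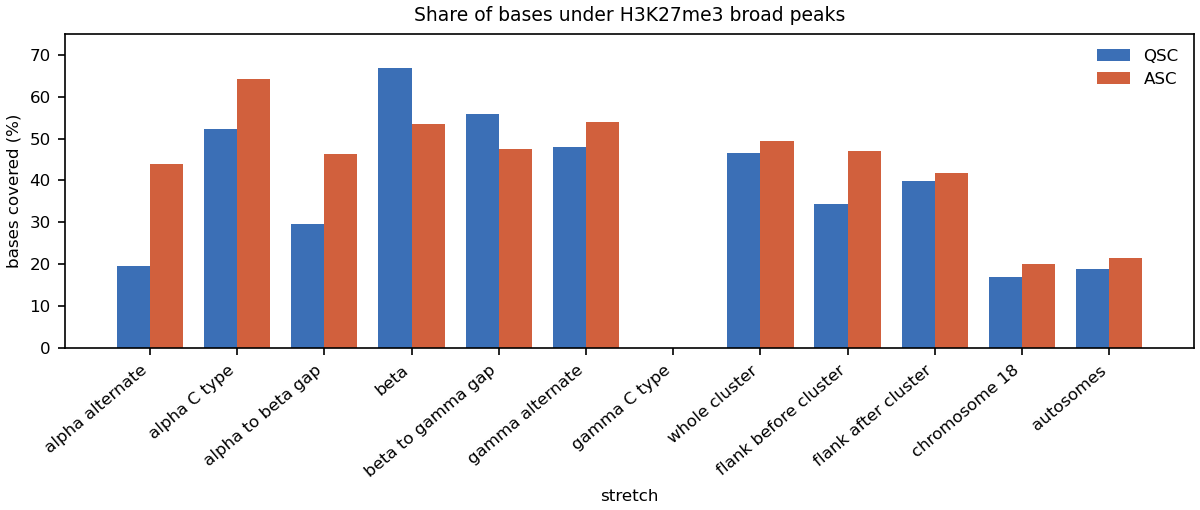
Percent of bases under H3K27me3 broad peaks in each stretch of the cluster, in the 250 kb on either side, on chromosome 18 and on the autosomes, with 1 bar per pooled list and hence no error bar (QSC blue, ASC orange). Chromosomes were taken from their first to their last listed peak. The alternate alpha stretch, which includes the sequence between Pcdha12 and Pcdhac1, went from 19.5% in QSC to 43.9% in ASC. The beta stretch went from 66.8% to 53.5%, and the gamma C types have no bar because both values are 0.

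The narrow H3K27me3 lists, which keep shorter and stronger peaks, left nearly all members without a call. In QSC 1 of 57 members was called, where 7.85% of all genes were, and in ASC 2 of 57, where 13.4% were. Among all genes 0.553% were called in QSC alone and 6.07% in ASC alone. Pcdhac1 was called in both states, with 668 bp and a fold of 3.16 in QSC and 585 bp and a fold of 3.88 in ASC. Pcdhac2 was called in ASC alone, where 1310 bp of its window lay under peaks of fold up to 4.70.

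The QSC list had narrow peaks near Pcdhac2 as well, but the nearest began 1152 bp past its start (37144830 to 37146328, fold 4.59) and so fell outside the window. With windows of 2500 bp either side, 2 members were called in each state. The only alternate gene with narrow H3K27me3 in its window was Pcdhga4, with 290 bp in QSC and 254 bp in ASC, both under 500 bp. No beta window held a call.

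The strongest narrow H3K27me3 peaks of the cluster in QSC lay away from the starts. In QSC 3 peaks stood between Taf7 and Pcdhga1, at 37645882 to 37649479 (3598 bp, fold 7.46, −log10 q 13.53), 37649598 to 37651904 (fold 6.51) and 37652233 to 37654411 (fold 5.82). In ASC the same place held 3 peaks with folds of 4.05, 3.48 and 3.48. The broad lists gave a QSC peak of 10585 bp there with a fold of 3.45, the highest in the cluster, and an ASC peak of 20158 bp with a fold of 2.28 that reached over the start of Pcdhga1.

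In ASC the strongest narrow peak was instead at the end shared by the alpha genes, at 37183871 to 37187501, 3631 bp long with a fold of 4.91 and a −log10 q of 8.91. The QSC narrow list had no peak there. The window around this shared end, counted once for the 14 alpha records, had 2001 bp under broad peaks in both states and 0 and 845 bp under narrow peaks in QSC and ASC. The end shared by the 21 gamma records had 0 bp of H3K27me3 in every list. The ASC narrow peaks next in fold to that at the alpha end were near a start. They had folds of 4.7, 4.5 and 4.33 and lay 85, 607 and 1876 bp from the start of Pcdhac2. The whole cluster held 12 narrow peaks in QSC and 13 in ASC, of which 41.7% and 46.2% touched a peak of the other state. The share over all narrow peaks of the lists was not computed.

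The 12 protocadherin genes outside the cluster, single genes with promoters of their own, were read with the same window and thresholds. Pcdh1, Pcdh11x and Pcdh12 had no known strand and were read at either end, so they had more chance of a call than a member. Their H3K4me3 count was 7 in QSC and 8 in ASC, where 52.1% and 54.8% of all genes were called. Pcdh1, Pcdh7, Pcdh10, Pcdh11x, Pcdh17, Pcdh18 and Pcdh19 were called in both states and Pcdh9 in ASC alone. The H3K27me3 broad count was 8 in QSC and 9 in ASC, with Pcdh11x called in ASC alone, and the narrow count was 3 and 5, with Pcdh1 and Pcdh10 called in ASC alone.

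Some of their H3K27me3 peaks were stronger than any at a clustered start. The broad fold in QSC and ASC was 3.45 and 3.03 at Pcdh8, 3.10 and 3.16 at Pcdh12, 3.35 and 4.05 at Pcdh1 and 2.96 and 3.09 at Pcdh10. Others were as low as in the cluster, with 1.73 and 1.83 at Pcdh20. Pcdh7 and Pcdh18 had H3K4me3 folds of 15.73 and 12.82 in QSC and 33.60 and 27.64 in ASC with no H3K27me3 call, like Pcdhgc3. The same held for Pcdh19 at lower folds, 7.02 in QSC and 9.21 in ASC, and for Pcdh11x in QSC alone. Pcdh1, Pcdh10 and Pcdh17 had both marks in each state, like Pcdhac2, and Pcdh9 and Pcdh11x in ASC alone. No test compared these 12 genes with the cluster.

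**Figure D4:**
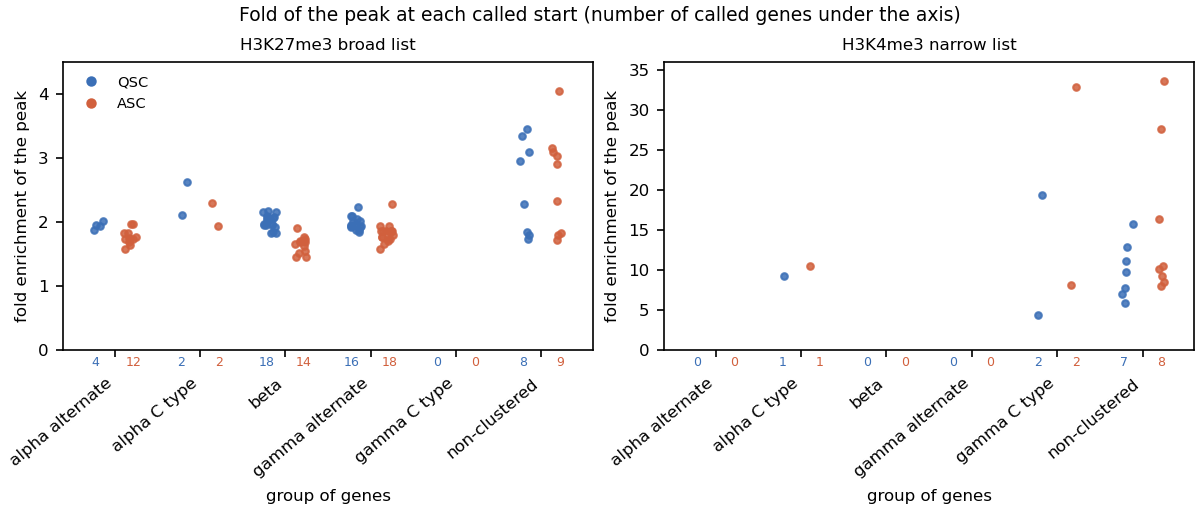
Fold of the peak at each called start, by subcluster and for the 12 protocadherin genes outside the cluster, for the H3K27me3 broad list (left) and the H3K4me3 narrow list (right); each point is 1 gene, numbers under the axis are called genes (QSC blue, ASC orange), and genes under 1 long peak share its fold. H3K27me3 folds at clustered starts stay at or below 2.62, while 4 genes outside the cluster reach 2.96 or more in QSC.

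Genes that act on or with these proteins were read in the same way, and their calls are given as a description beside the shares of all genes above. Of 19 regulators known from neurons, 14 had H3K4me3 in each state, among them Ctcf, the cohesin genes Smc1a, Smc3 and Stag2, the cohesin release factor Wapl, Smchd1 and Setdb1, and 0 had narrow H3K27me3. Those without an H3K4me3 narrow call in either state were Rad21, Stag1, Nipbl, Dnmt1 and Dnmt3a. Rad21 did have a peak in the broad H3K4me3 lists, with a fold of 7.15 in QSC and 9.73 in ASC. Broad H3K27me3 was called at 2 of the 19 in each state, Dnmt1 and Dnmt3a. Their folds in QSC and ASC were low, 1.76 and 1.89 at Dnmt1 and 1.97 and 1.94 at Dnmt3a. Each gene was read at the outer end of its record, or at both ends without a known strand. Starts inside a record were not read, so these calls need not describe the promoter in use. Of 12 signalling partners inside the cell, 9 in QSC and 10 in ASC had H3K4me3, the difference being the kinase gene Ptk2b, and narrow H3K27me3 was called at 1 and 2, the difference being the adaptor gene Dab1.

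Of 20 other cadherin genes, 7 had H3K4me3 in QSC and 9 in ASC, with Cdh1 and Cdh11 called in ASC alone. The muscle cadherin gene Cdh15 was among the 7 called in both. Broad H3K27me3 was called at 10 and 11 of the 20, with Cdh10 called in ASC alone, and narrow H3K27me3 at 5 and 7, with Cdh4 and Cdh6 called in ASC alone. Of the 16 protein-coding genes within 250 kb of the cluster, 13 had H3K4me3 and 3 had broad H3K27me3 in each state. All 16 were read at either end, unlike the members, because no strand was known on chromosome 18. Close neighbours can also share a peak: in ASC Tmco6, Ndufa2 and Ik had the same H3K4me3 fold of 22.94. Inside the cluster, Taf7 had no H3K27me3 call in either state, with 332 bp in QSC and 267 bp in ASC, while its neighbour Slc25a2, a mitochondrial carrier gene, had 1920 bp in QSC and 0 bp in ASC.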

How the data were processed

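H3K4me3 and H3K27me3 were measured by ChIPmentation, in which antibody-bound chromatin is tagmented, with reads of 2 x 75 bp per the labels' protocols. The submitters' processing notes name MACS2 2.1.1, Bowtie2 2.3.2, Trimmomatic 0.36, SAMtools 1.3, bcl2fastq 2.19, bedtools 2.26.0 and Picard 2.9.2, and the build mm10, without their settings. The authors deposited for each peak its fold over background, which is a linear ratio, the −log10 of its p-value and of its q-value, and a score that was not used. Numbers in the deposited peak names show that the lists are partial: within the cluster 73.8% of 145 H3K27me3 broad peak numbers were present in QSC and 67.2% of 125 in ASC. An uncovered stretch therefore means that no peak was listed there. Signal tracks were not used here.

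The ends of genes were read from the RefSeq table for GRCm38.p6, in which coordinates equal those of mm10. Strand was known for 17492 of 21887 genes from a promoter table, and for none on chromosome 18. Members were read at the lower end of the record, because alpha and gamma records share their upper ends, and other genes without strand at either end. A start was called when H3K27me3 peaks covered at least 500 bp, or an H3K4me3 narrow peak at least 1 bp, of 1 kb either side. Members and lists were chosen with earlier results of these data known. All members are described, and those named include the C types, the members with differing calls, and the first, last, most and least covered of each subcluster. Python 3.11.15 and pandas 2.3.3 were used, and the overlap code was tested on simulated data. No sequence of a member is printed.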

Additional observations from a re-analysis of the deposited data

How the results depend on the processing

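No paired analysis was possible because each peak list is pooled over the replicates of its group, and for the same reason no replicate could be left out. With either a −log10 q of 5 or a fold of 3 as the minimum, 0 members had a broad H3K27me3 call in either state, overall and in each of alpha, beta and gamma, and 0 with both marks. The covered shares of the alternate alpha, alpha C-type, beta and alternate gamma stretches were then 0, and those of the whole cluster and of 10 kb bins with at least 50% covered were 1.16% and 2.17% in QSC at a fold of at least 3 and 0 otherwise. The 3 H3K4me3 calls in each state held under both. Narrow H3K27me3 calls were 0 in QSC and 2 in ASC at a −log10 q of at least 5. With QSC cut to as many broad peaks as ASC, every count of calls was as before, and the QSC shares were 16.0% over alternate alpha, 49.8% over alpha C types, 66.2% over beta, 45.2% over alternate gamma, 44.3% over the whole cluster and 44.6% of bins.

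The alpha count in QSC depended on the window. It was 11 with 2500 bp either side, 10 with at least 1 bp covered and 14 over the whole record, against 14 in ASC in all 3. The beta count in QSC and ASC was 20 and 19 with 2500 bp either side, 20 and 15 with at least 1 bp covered and 19 and 17 over the whole record. It stayed higher in QSC, but only narrowly in the first and last of these settings. Narrow H3K27me3 calls in QSC and ASC were 0 and 0 with 500 bp either side, 2 and 2 with 2500 bp, 2 and 3 with at least 1 bp, 0 and 1 with at least 1000 bp, and 14 and 14 over the whole record, where each alpha gene reaches the peaks of the alpha C types. The broad H3K4me3 lists called 22 members in QSC and 14 in ASC and covered 11.3% and 5.54% of the cluster, against 10.5% and 3.63% of the autosomes. With narrow lists for both marks, 0 members had both in QSC and 1 in ASC.

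The narrow H3K27me3 lists covered 0 of the alternate alpha stretch and of the bins in both states, 3.77% and 7.70% over alpha C types, 0.304% and 0.227% over beta, 0.201% and 0.176% over alternate gamma and 1.51% and 1.65% of the cluster. In bins of 5 kb, 48.6% and 51.4% had at least 50% covered, and in bins of 20 kb 47.8% of those in QSC did. With peaks of p at most 0.05 in both states, a setting chosen after seeing the data like the upper end of the beta records, the ASC shares were 41.0% over alternate alpha, 61.7% over alpha C types, 45.2% over beta, 51.4% over alternate gamma, 45.6% of the cluster and 45.7% of bins. The cause of these shifts was not tested. Depth is unknown, so a missing peak is no measure of absence.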
